A study of Drosophila melanogaster with 21 samples.

Results

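The heads of female Drosophila melanogaster collected 4 h after appetitive training with sucrose were compared with the heads of starved flies that had not been trained. Both groups were taken by their labels, with 5 heads in each, so that 10 of the 21 heads of the series entered the comparison. Each head came from a single fly and was sequenced as its own library. In the trained group, starved flies received the odor octanol together with sucrose, as a group, and their heads were collected 4 h later. The starved flies received neither training nor sugar, and their time after training is labelled 0 h. All flies were kept at 25 °C on a 12:12 light:dark cycle. The other heads were 5 from untrained flies that had not been starved (untrained fed below) and 6 collected 1 h after the same training. All 21 heads shared one fit. The strain of these flies, the time of day at collection and whether the trained flies ate between training and collection are not given in the sources used here. Odor, sucrose, handling and the hours that passed all differed between both groups at once, so their parts in any difference below cannot be told apart. A whole head holds brain, eyes, fat body, muscle and blood cells, and in such bulk RNA fewer cells of a type and less RNA per cell cannot be told apart.

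A starved fly burns stored fat. Fatty acids leave the fat droplets through lipases, enter mitochondria through carnitine palmitoyltransferase and are shortened there by β-oxidation, while amino acids are broken down for energy. When sugar returns, the sugar-sensing factor Mondo-Mlx and its target sugarbabe reorganise carbohydrate and lipid metabolism in flies, and insulin and TOR signalling favour growth. One of the best known growth outputs is ribosome biogenesis in the nucleolus, where RNA polymerase I transcribes the ribosomal RNA precursor and small nucleolar ribonucleoproteins (snoRNPs) modify and cut it. Box C/D snoRNPs carry the methyltransferase fibrillarin, and H/ACA snoRNPs carry a pseudouridine synthase.

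Values are RPKM, reads per length of transcript and size of the library, as deposited for every gene and head. Fold changes are differences of mean log2(RPKM + 1), 4 h after training minus starved, which understates the change of genes with low levels. SE is the standard error of this difference. The test was limma's moderated test over 10501 genes, with p-values adjusted by Benjamini and Hochberg's method, and a gene counts as changed where this adjusted p is under 0.05. Head values are listed by replicate number, 1, 3, 4, 5 and 6 at 4 h and 1 to 5 for starved flies.

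The libraries held 37942588 to 58454063 reads on genes at 4 h and 36018275 to 56480389 in starved heads. Markers of neurons, glia, eyes, fat body, muscle and hemocytes were present in the heads. Neuronal markers summed to 523 to 577 RPKM at 4 h and to 517 to 623 RPKM in starved heads. Glial markers summed to 487 to 761 RPKM at 4 h and 686 to 963 RPKM in starved heads, and muscle markers to 569 to 1561 RPKM at 4 h and 736 to 2495 RPKM in starved heads. Photoreceptor markers summed to 15472 to 17147 RPKM at 4 h, against 10406 to 14056 RPKM in starved heads. Hemocyte markers summed to 76.8 to 94.4 RPKM at 4 h, against 114 to 142 RPKM in starved heads. For these 2 sums the groups did not overlap. The gene ninaE, at 13453 to 15139 RPKM at 4 h, made up most of the photoreceptor sum. The mean log2(RPKM + 1) over the 8 photoreceptor markers did overlap, at 8.76 to 8.81 at 4 h and 8.46 to 8.79 in starved heads. Of these 8 markers 1 was called higher. By their markers, a pair of heads stood apart among the 10. In starved head 3 the fat body markers summed to 124 RPKM, against 1884 to 11326 RPKM in the other starved heads and 1656 to 9001 RPKM at 4 h. Head 6 at 4 h held transcripts of ovary and egg, among them osk at 6.14 RPKM, against at most 0.223 RPKM in the other heads at 4 h and at most 0.0742 RPKM in starved heads. For many of the lists below, counts without these 2 heads are also given. Over all tested genes, the root mean square deviation from the group mean was 0.584 for starved head 3. It was 0.316 for head 6 at 4 h, below head 1 at 4 h (0.339). Among the other heads in the fit, untrained fed head 2 (0.702) and 1 h head 3 (0.518) deviated strongly and were kept. Male markers summed to at most 56.3 RPKM in untrained fed heads, against at most 3.85 RPKM at 4 h and 2.96 RPKM in starved heads.

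Of the 10501 genes tested, 669 changed (6.37%), 380 higher (3.62%) and 289 lower (2.75%) at 4 h. The heads of both groups did not overlap for 1011 genes (9.63%), among them 212 of the 380 higher and 213 of the 289 lower genes. Without both heads that stood apart, 279 genes changed, 110 higher and 169 lower, of which 227 were among the 669. Leaving out starved head 3 alone gave 275 higher and 363 lower genes, and leaving out head 6 at 4 h alone gave 177 higher and 113 lower. The median fold change over all genes was 0.00.

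**Figure D1:**
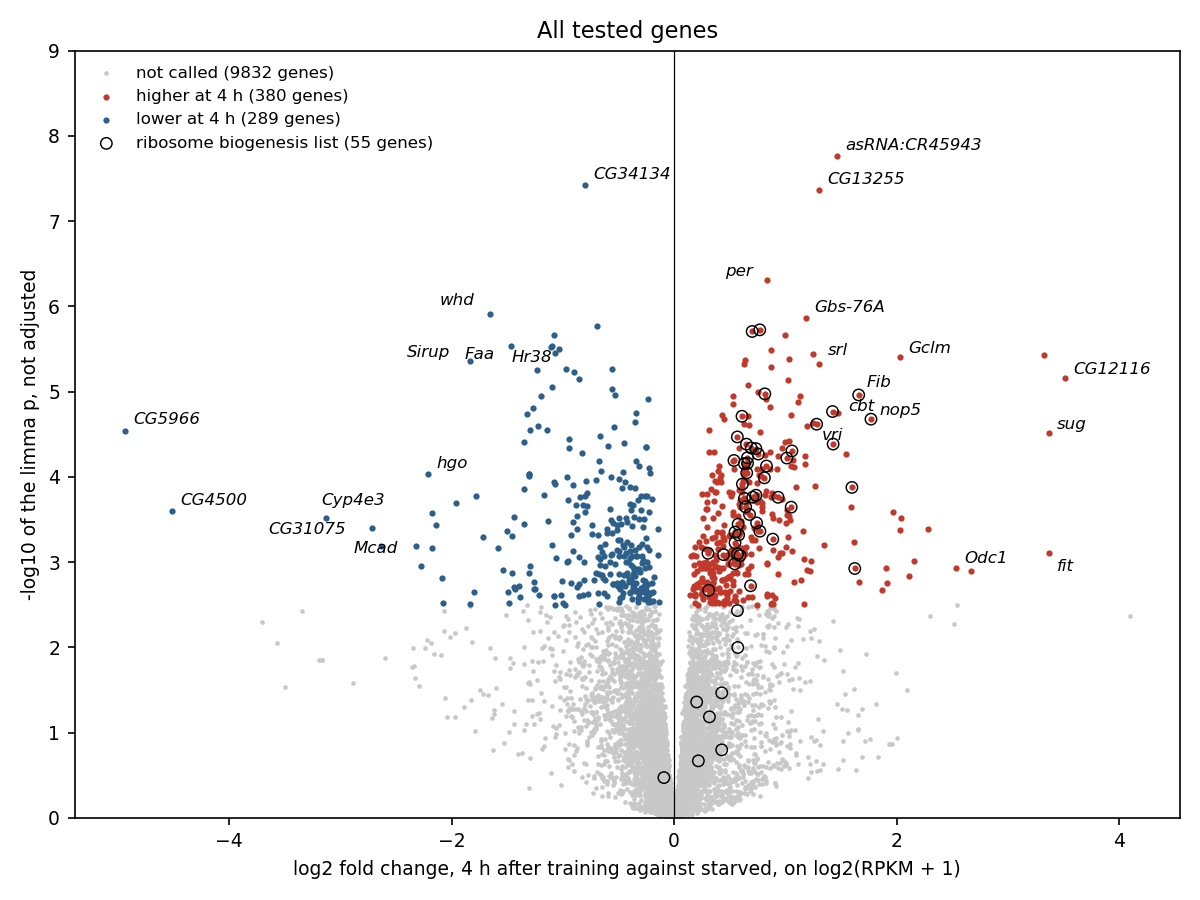
Each point is a gene, by its log2 fold change between heads 4 h after training and starved heads on log2(RPKM + 1) and by −log10 of its limma p, not adjusted. Red points are the 380 genes higher at 4 h, blue points the 289 lower, grey points the 9832 not called, and circles the 55 ribosome biogenesis genes, of which all but 1 lie right of 0.

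The function lists leaned in different directions. Rising calls held 47 of 55 ribosome biogenesis genes, 2 of 8 sugar-responsive regulators (1 fell) and 2 of 23 genes of endoplasmic reticulum folding and stress. Without both heads that stood apart these counts were 21, 2 and 0. Falling calls held 5 of 23 genes of mitochondrial fatty acid oxidation and 12 of 74 cytochrome P450 genes. They also held 5 of 37 genes of amino acid and one-carbon metabolism, among them tyrosine breakdown genes picked out after their values were seen. Without both heads these counts were 7, 7 and 8. These shares are descriptions of the lists and stand beside 3.62% higher and 2.75% lower over all genes.

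**Figure D2:**
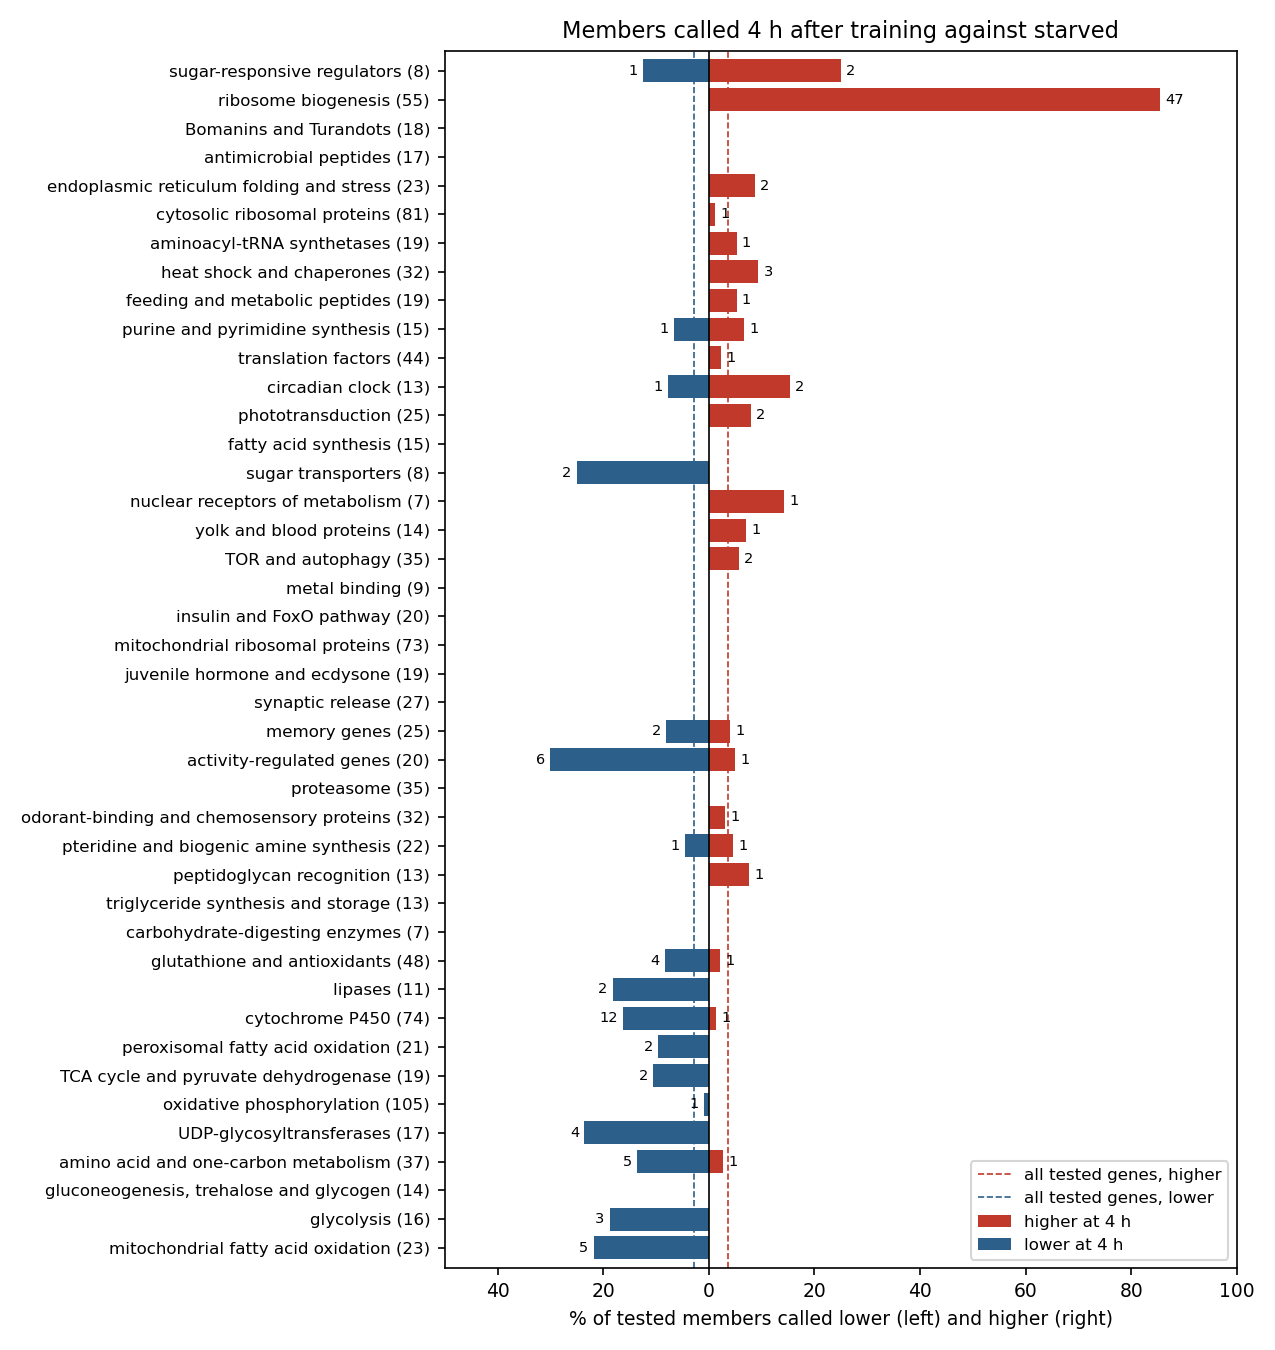
Bars give the percent of the tested members of each function list that were called higher (red, right) or lower (blue, left) at 4 h than in starved heads, with dashed lines at the shares over all tested genes, 3.62% and 2.75%. Numbers beside the bars are called genes, and those in parentheses tested genes. Ribosome biogenesis, with 47 of 55 genes higher, has the longest bar on the right.

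Ribosome biogenesis stood out among the rising lists. Of its 55 tested genes 47 rose and 0 fell, with a median fold change of 0.66 (54 of 55 above 0), and the heads of both groups did not overlap for 16 of the 55, against 9.63% over all genes. The count was 39 without starved head 3, 32 without head 6 at 4 h and 21 without both, with medians of 0.61, 0.61 and 0.56.

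The core proteins of the box C/D snoRNP rose together. Fib, the 2′-O-methyltransferase fibrillarin, had 16.1, 24.9, 37.3, 20.5 and 35.1 RPKM at 4 h, against 16.0, 7.76, 4.72, 7.56 and 4.78 RPKM in starved heads (1.66 ± 0.28 SE, adjusted p = 0.00276, limma). Head 1 at 4 h lay just above starved head 1, the highest starved head, and the other heads at 4 h lay above all starved heads. The scaffold pair of this particle changed by a like amount. Nop56 had 18.01, 24.0, 33.6, 19.3 and 35.1 RPKM at 4 h, against 15.7, 8.81, 6.18, 10.1 and 5.67 RPKM in starved heads (1.42 ± 0.25 SE, adjusted p = 0.00358, limma). Its partner nop5 (chromosome 2L, 6916753 to 6918743) averaged 28.5 ± 9.97 RPKM at 4 h and 8.32 ± 5.69 RPKM in starved heads (SD, n = 5 each), a fold change of 1.77 with a limma adjusted p of 0.00374, and overlapped between groups only through starved head 1. The small C/D protein hoip rose by 1.62 (limma adjusted p = 0.0275), a call that was lost in 6 of the 10 fits that left out a head. U3-55K, a protein of the U3 particle that guides the early cuts of the ribosomal RNA precursor, rose by 1.02 (limma adjusted p = 0.00229).

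All 4 proteins of the H/ACA snoRNP rose as well. Nop60B, the fly dyskerin and the pseudouridine synthase of the particle, had 9.15, 15.1, 24.5, 11.9 and 25.2 RPKM at 4 h, against 8.63, 5.40, 2.67, 5.22 and 2.95 RPKM in starved heads (1.60 ± 0.33 SE, adjusted p = 0.00856, limma). Its partners NHP2 (1.28), Nop10 (1.43) and Gar1 (0.79) had limma adjusted p-values of 0.00401, 0.00529 and 0.0115, and none of these 4 genes overlapped between groups. Without both heads that stood apart, Fib, nop5, Nop56, NHP2 and Nop10 were still called, and Nop60B (limma adjusted p = 0.0623) and Gar1 (limma adjusted p = 0.0802) were not. Nearly the same order of heads ran through these genes, with heads 4 and 6 highest at 4 h for Fib, nop5, Nop56, Nop60B, NHP2 and Nop10, and starved head 1 the highest starved head for each.

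**Figure D3:**
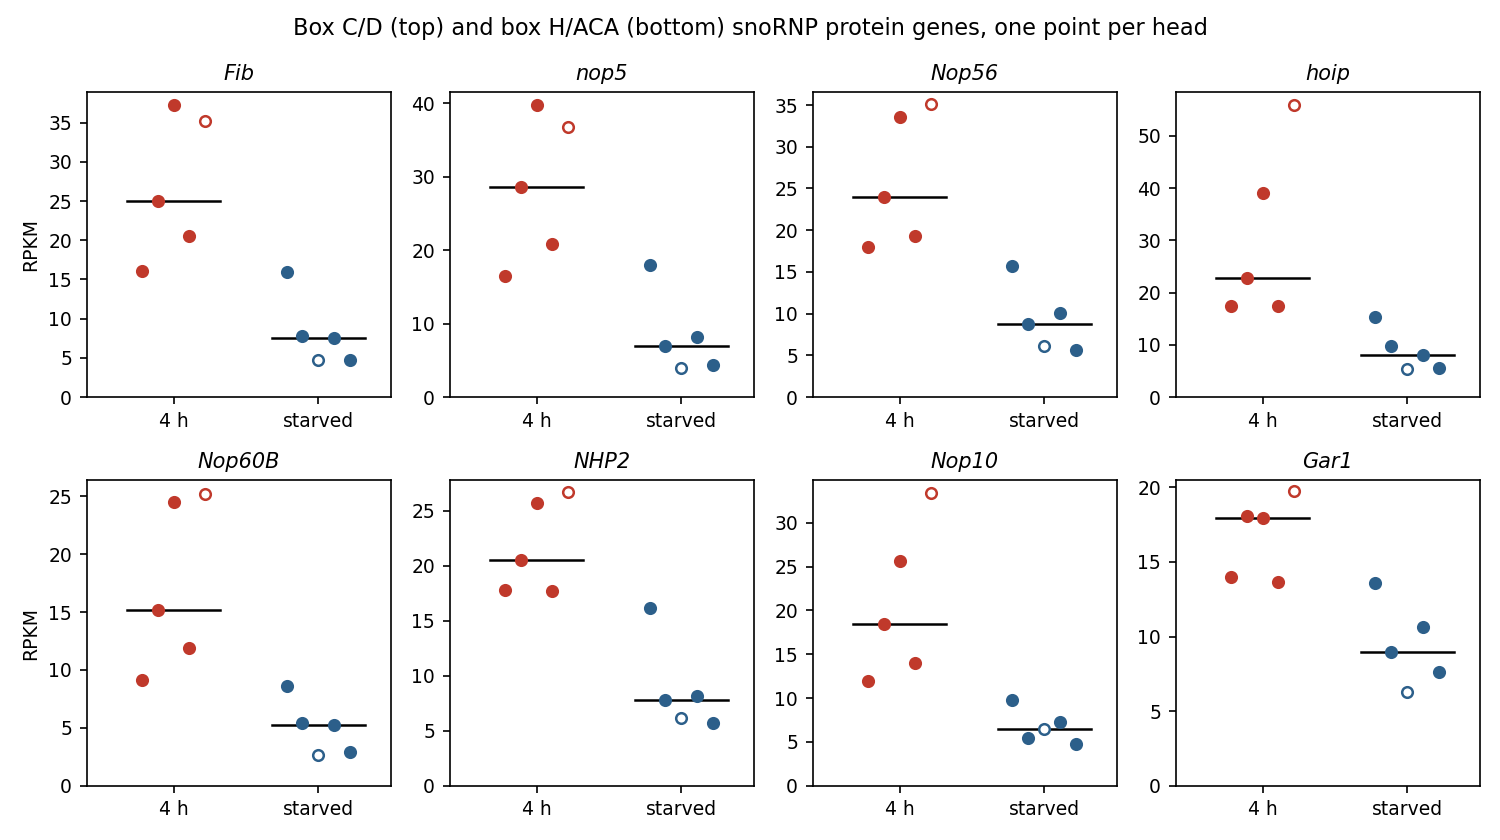
RPKM (linear axes from 0) of box C/D (top) and H/ACA (bottom) snoRNP protein genes, one point per head, with 4 h after training left of starved and lines at the medians. Open circles are head 6 at 4 h and starved head 3. Apart from nop5 the groups do not overlap, and starved head 1 lies closest to the heads at 4 h.

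Other steps of ribosome assembly rose to a smaller extent. Nopp140, a nucleolar chaperone of snoRNPs, rose by 1.06 (limma adjusted p = 0.00571), and mod (modulo), a nucleolar RNA-binding protein, had 44.3, 51.9, 72.2, 40.4 and 63.4 RPKM at 4 h, against 34.8, 31.2, 23.0, 31.0 and 25.7 RPKM in starved heads (0.86, limma adjusted p = 0.00571). Mybbp1A, the fly relative of a nucleolar Myb-binding protein, rose by 0.77 (limma adjusted p = 0.00432). The subunits of RNA polymerase I Polr1A (0.57) and Polr1H (0.89) were called with limma adjusted p-values of 0.0142 and 0.0181, but not without head 4 or without head 6 at 4 h. These modest fold changes came at low levels, with Polr1A at 5.32 to 8.01 RPKM at 4 h and 2.97 to 5.45 RPKM in starved heads. Myc, a factor that drives ribosome biogenesis in flies, differed by 0.43 with a limma adjusted p of 0.421.

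The small nucleolar RNAs themselves and their host genes were counted after the values were seen. Of 142 tested snoRNA genes, 13 rose and 0 fell, with a median of 0.56 (125 above 0). Libraries were selected for polyA, which small nucleolar RNAs lack, so these levels may hold reads of host transcripts. Of the 7 Uhg genes, non-coding hosts that carry snoRNAs in their introns, 5 rose (median 0.88). Uhg1 had 13.6, 14.7, 16.8, 11.3 and 19.3 RPKM at 4 h, against 9.27, 4.63, 5.82, 8.22 and 6.83 RPKM in starved heads, without overlap (1.03 ± 0.16 SE, adjusted p = 0.00197, limma), and Uhg2 rose by 1.18 (limma adjusted p = 0.00599). Both calls were kept in all 10 fits that left out a head, and without both heads that stood apart. Without those 2 heads, 2 snoRNA genes and 3 Uhg genes were called.

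The proteins of the ribosome itself gave few calls. Of 81 cytosolic ribosomal protein genes 1 rose, RpLP0-like, whose yeast relative is an assembly factor, and 0 fell, although all 81 had a fold change above 0 (median 0.32). This median was 0.08 without starved head 3, whose mean over the list was 8.14 on log2(RPKM + 1), against 8.99 to 9.53 in the other starved heads. Of 73 mitochondrial ribosomal protein genes 0 were called by limma (0 at an unadjusted p below 0.05 higher and 3 lower, 0 by voom), with a median of −0.03. Of 44 translation factors 1 rose, eIF6, the factor that keeps the large ribosomal subunit apart from the small until it is mature, with 17.9, 19.7, 27.5, 16.9 and 23.1 RPKM at 4 h, against 16.4, 12.0, 9.69, 12.0 and 9.99 RPKM in starved heads (0.76, limma adjusted p = 0.00730, and 0.0513 without both heads that stood apart). Of 19 aminoacyl-tRNA synthetases 1 rose (median 0.30). These shares lie near or under the 3.62% higher over all genes.

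Genes that respond to sugar supplied some of the steepest rises. Of 8 sugar-responsive regulators 2 rose, sug and cbt, and 1 fell, the nuclear receptor Hr38. Both cbt and Hr38 are also among the activity-regulated genes below. The zinc finger factor sug (sugarbabe) had 24.3, 71.5, 44.7, 63.6 and 104 RPKM at 4 h, against 24.2, 14.9, 0.860, 2.23 and 1.03 RPKM in starved heads, so that head 1 at 4 h and starved head 1 met at the edge of their groups (3.37 ± 0.62 SE, adjusted p = 0.00444, limma). The transcription factor cbt (cabut), which sugar feeding induces, averaged 44.4 ± 8.45 RPKM at 4 h and 16.1 ± 6.11 RPKM in starved heads (SD, n = 5 each; 1.47, limma adjusted p = 0.00358). It averaged 22.4 ± 5.32 RPKM in untrained fed heads (SD, n = 5) and 49.6 ± 19.9 RPKM at 1 h (SD, n = 6). Both calls were kept in all 10 fits that left out a head and without both heads that stood apart.

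Gbs-76A, named after the values were seen, encodes a glycogen-targeting subunit of protein phosphatase 1. It had 25.9, 29.8, 40.6, 32.9 and 46.4 RPKM at 4 h, against 15.7, 13.6, 14.8, 13.2 and 16.0 RPKM in starved heads, a clear gap between groups (1.18 ± 0.17 SE, adjusted p = 0.00197, limma). The starved heads lay close together, whereas the heads at 4 h were spread out, with heads 4 and 6 highest. The PGC-1 homolog srl (spargel), a coactivator of growth and mitochondrial genes in flies, had 4.37, 6.94, 8.97, 5.07 and 10.4 RPKM at 4 h, against 3.36, 2.23, 1.28, 2.64 and 1.75 RPKM in starved heads, again without overlap (1.30 ± 0.21 SE, adjusted p = 0.00197, limma).

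Biosynthetic enzymes rose in a few places. Gclm, the modifier subunit of the enzyme that begins glutathione synthesis, averaged 94.6 ± 24.0 RPKM at 4 h and 22.0 ± 4.29 RPKM in starved heads (SD, n = 5 each; 2.03, limma adjusted p = 0.00197). Odc1, ornithine decarboxylase of polyamine synthesis, rose by 2.53 (limma adjusted p = 0.0272), with overlap, since starved head 1 lay above head 1 at 4 h with its 80.7 RPKM. Of 22 tested genes of pteridine and biogenic amine synthesis 1 rose and 1 fell, with a median of −0.16 (17 below 0). CG12116, the gene that rose, changed by 3.51 (limma adjusted p = 0.00229). Nearly the same reads were counted for the overlapping gene CG33223, 21767 to 40093 reads at 4 h beside 21536 to 39719 for CG12116, so the reads of this pair cannot be assigned to either gene. Among 15 tested genes of fatty acid synthesis limma called 0 (unadjusted p below 0.05 for 3 higher and 2 lower, voom 3 higher and 1 lower). ATP citrate lyase (ATPCL, 1.26) and malic enzyme (Men, 1.42) had limma adjusted p-values of 0.0715 and 0.0624.

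The peptide fit, a satiety signal of female flies that protein feeding induces, was called with wide spread. It had 26.8, 113, 148, 80.4 and 61.5 RPKM at 4 h, against 9.28, 14.3, 0.965, 24.2 and 1.61 RPKM in starved heads (3.37 ± 0.84 SE, adjusted p = 0.0223, limma). The groups did not overlap, but head 1 at 4 h came close to starved head 4, and the call was lost in 5 of the 10 fits that left out a head. Untrained fed heads averaged 595 ± 363 RPKM (SD, n = 5). Of the 19 feeding and metabolic peptides tested, fit was the only call. In the insulin and FoxO list limma called 0 of 20 (unadjusted p below 0.05 for 1 higher and 0 lower, voom 0).

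Several genes of protein folding and entry into the endoplasmic reticulum rose. Of 23 genes of endoplasmic reticulum folding and stress 2 rose, and all 23 had a fold change above 0 (median 0.49). Both act at the translocation channel. TRAM had 29.96, 27.2, 49.4, 19.3 and 27.7 RPKM at 4 h, against 14.2, 23.9, 7.40, 13.1 and 9.14 RPKM in starved heads (1.16, limma adjusted p = 0.0242), and Sec61gamma rose by 1.00 (limma adjusted p = 0.0207). Head 4 was the highest for both genes, and both calls were lost without it. Named after the values were seen, the translocon-associated Tapdelta (1.00) and the signal recognition particle receptor subunit SrpRbeta (0.90) had limma adjusted p-values of 0.0138 and 0.00941 and no overlap. Of 32 heat shock and chaperone genes 3 rose, 1 without starved head 3 and 2 without head 6 at 4 h. Hsp83, the fly Hsp90, had 261, 329, 238, 272 and 205 RPKM at 4 h, against 137, 113, 75.6, 187 and 70.4 RPKM in starved heads (1.23, limma adjusted p = 0.0253). CCT2, a subunit of the chaperonin that folds actin and tubulin, rose by 0.82 (limma adjusted p = 0.00941). None of these 6 genes was called without both heads that stood apart (limma adjusted p from 0.0620 to 0.111).

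The clock gene period (per, chromosome X, 2685580 to 2692780) separated both groups clearly. It had 13.01, 12.97, 14.2, 13.9 and 10.7 RPKM at 4 h, against 6.33, 6.56, 8.15, 6.49 and 6.63 RPKM in starved heads (0.83 ± 0.11 SE, adjusted p = 0.00127, limma). It averaged 6.05 ± 0.849 RPKM in untrained fed heads (SD, n = 5) and 7.45 ± 1.38 RPKM at 1 h (SD, n = 6), so the heads at 4 h alone were high. The clock repressor vri (vrille) had 22.2, 22.9, 23.2, 24.1 and 20.8 RPKM at 4 h, against 9.40, 8.41, 8.41, 6.91 and 12.2 RPKM in starved heads (1.25 ± 0.22 SE, adjusted p = 0.00400, limma). For vri the 1 h heads spread from 8.36 to 27.1 RPKM, and untrained fed heads from 8.55 to 12.3 RPKM. Both genes follow the daily cycle in flies, and since the time of collection is not given, time of day and training cannot be told apart. Of the 13 clock genes 2 rose, with 2 also called higher without both heads that stood apart, and 1 fell. The partner of per, timeless (tim), differed by 0.05 (limma adjusted p = 0.930), and the blue-light receptor cry fell by 0.39 (limma adjusted p = 0.0411), a call that was lost in 8 of the 10 fits that left out a head.

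Of 25 phototransduction genes 2 rose, beside 3.62% over all genes, with 4 called higher without starved head 3, 1 without head 6 at 4 h and 1 without both. Arr1, arrestin 1, which ends the rhodopsin signal, had 1577, 1708, 1739, 1762 and 1792 RPKM at 4 h, against 1493, 1128, 1327, 1252 and 1178 RPKM in starved heads (0.43 ± 0.09 SE, adjusted p = 0.0107, limma). The main rhodopsin ninaE rose by 0.45 (limma adjusted p = 0.0464), a call lost in 8 of the 10 fits that left out a head. The summed photoreceptor markers, of which ninaE is the largest part, were higher at 4 h without overlap, as given above. Their mean on the log2 scale overlapped between groups. The part of photoreceptors in these genes was not tested.

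Genes of mitochondrial fatty acid oxidation had the lowest median fold change of the function lists. Of 23 such genes 5 fell and 0 rose, with a median of −0.94 (21 below 0). Without starved head 3, 10 fell (median −1.28), without head 6 at 4 h 1 fell, and without both 7 fell (median −1.40). The carnitine palmitoyltransferase gene whd (withered), which admits fatty acids to mitochondria, had 39.0, 36.9, 51.3, 36.6 and 27.8 RPKM at 4 h, against 129, 198, 65.0, 138 and 112 RPKM in starved heads (−1.66 ± 0.24 SE, adjusted p = 0.00197, limma). All heads at 4 h lay below all starved heads, and starved head 3, with little fat body RNA, was the lowest of its group. At 1 h whd averaged 42.8 ± 8.69 RPKM (SD, n = 6), and in untrained fed heads 101 ± 26.2 RPKM (SD, n = 5).

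Several enzymes of the β-oxidation spiral fell as well. Mcad, medium-chain acyl-CoA dehydrogenase (chromosome 3L, 7719350 to 7721472), had 40.5, 76.8, 88.3, 72.7 and 59.8 RPKM at 4 h, against 286, 898, 109, 344 and 411 RPKM in starved heads (−2.32 ± 0.57 SE, adjusted p = 0.0206, limma). It shares 1353 of its 1461 exonic bases with CG7457 on the other strand, and since the libraries do not mark strand, reads of both genes cannot be told apart. The thiolase yip2 (−2.28) and the subunits of the trifunctional protein Mtpalpha (−1.80) and Mtpbeta (−1.48) had limma adjusted p-values of 0.0267, 0.0404 and 0.0479. Starved head 3 fell within the range at 4 h for yip2, Mtpalpha and Mtpbeta, while the other starved heads lay above all heads at 4 h. Mtpalpha and Mtpbeta each lost their call in 9 of the 10 fits that left out a head and were called without both heads that stood apart (limma adjusted p = 0.0242 and 0.0376). CROT, carnitine octanoyltransferase, which in mammals acts on shortened fatty acids in peroxisomes, fell by 2.08 on the log2 scale (limma adjusted p = 0.0326). Of the 21 tested genes of the peroxisomal oxidation list, which does not hold CROT, 2 fell (median −0.27). The count was 5 without starved head 3, 1 without head 6 at 4 h and 2 without both. Fat body markers, as given above, overlapped between both groups, with starved head 3 far below all other heads, and their part in these genes was not tested.

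**Figure D4:**
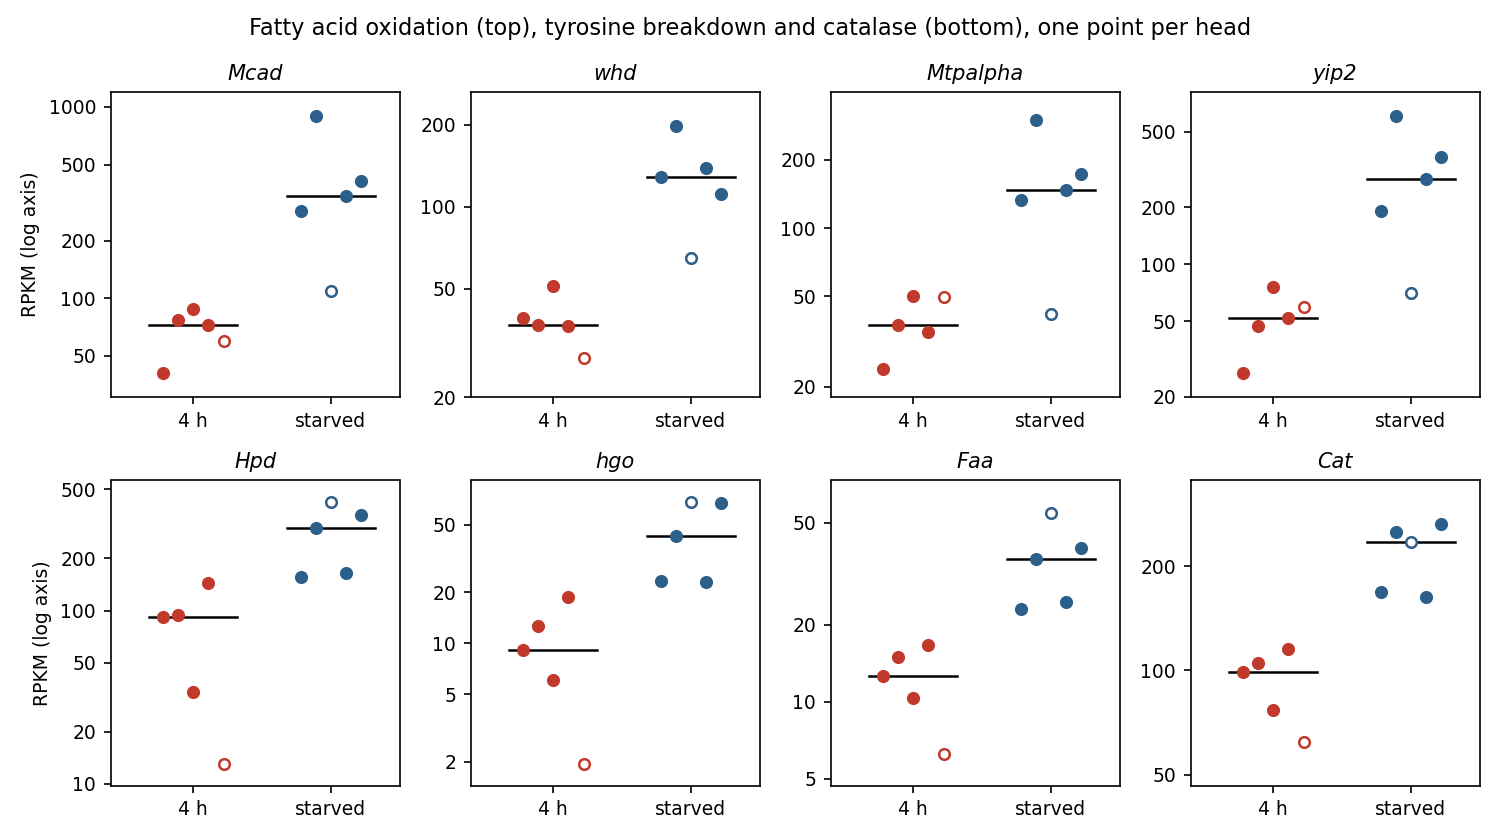
RPKM (log axes) of fatty acid oxidation genes (top) and of tyrosine breakdown genes and catalase (bottom), one point per head, with 4 h after training left of starved and lines at the medians. Open circles are head 6 at 4 h and starved head 3, which meets the heads at 4 h for Mtpalpha and yip2 and is the highest starved head for Hpd, hgo and Faa.

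Lipid release and activation held the 2 lowest fold changes of all tested genes. The lipase gene CG5966, similar to pancreatic lipase, had 0.927, 0.440, 1.30, 0.896 and 1.57 RPKM at 4 h, against 57.2, 309, 1.35, 155 and 126 RPKM in starved heads (−4.94 ± 0.90 SE, adjusted p = 0.00424, limma). Apart from starved head 3, which lay within the range at 4 h, every starved head was at least 57.2 RPKM. CG4500, annotated as hll, an acyl-CoA synthetase, had 0.139, 0.145, 1.41, 0.488 and 0.575 RPKM at 4 h, against 42.8, 123, 0.0739, 42.0 and 181 RPKM in starved heads (−4.51, limma adjusted p = 0.0115). Here starved head 3 was the lowest of all 10 heads. Both genes were called in each of the 10 fits that left out a head. The acyl-CoA synthetase pdgy (pudgy) showed no such dependence on starved head 3. It had 20.02, 19.99, 19.86, 21.1 and 15.1 RPKM at 4 h, against 32.9, 46.4, 47.9, 40.6 and 41.4 RPKM in starved heads (−1.08 ± 0.16 SE, adjusted p = 0.00197, limma). Of 11 tested lipases CG5966 and Lip4 (−1.43) fell, and 1 lipase was called lower without head 6 at 4 h. CG4500 and pdgy, which are in none of the lists, were named after their values were seen. The triglyceride lipase bmm (brummer) had 24.5, 18.1, 29.5, 25.1 and 21.4 RPKM at 4 h, against 45.7, 135, 46.7, 65.2 and 249 RPKM in starved heads without overlap, and just missed the threshold (−1.83, limma adjusted p = 0.0503). Of 13 genes of triglyceride synthesis and storage limma called 0 (unadjusted p below 0.05 for 1 higher and 3 lower, voom 0).

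Genes of tyrosine breakdown fell at 4 of its steps. Of 37 genes of amino acid and one-carbon metabolism 5 fell and 1 rose (Odc1), with a median of −0.51 (32 below 0), and without starved head 3 10 fell. These tyrosine genes were picked out of that list after their values were seen. Of the 5, Tat, Hpd, hgo and Faa act in this order from tyrosine to fumarate and acetoacetate, and Got2 is a mitochondrial aspartate aminotransferase. Hpd, 4-hydroxyphenylpyruvate dioxygenase, had 92.0, 94.3, 34.0, 145 and 13.03 RPKM at 4 h, against 157, 301, 422, 165 and 358 RPKM in starved heads (−2.18 ± 0.49 SE, adjusted p = 0.0120, limma). Homogentisate dioxygenase, hgo, had 9.13, 12.7, 6.03, 18.7 and 1.92 RPKM at 4 h, against 23.2, 43.2, 68.4, 23.1 and 66.9 RPKM in starved heads (−2.22 ± 0.45 SE, adjusted p = 0.00730, limma). Fumarylacetoacetase, Faa, had 12.6, 14.9, 10.4, 16.7 and 6.27 RPKM at 4 h, against 22.9, 36.0, 54.8, 24.5 and 39.96 RPKM in starved heads (−1.47 ± 0.22 SE, adjusted p = 0.00197, limma). In all 3 genes the groups were apart, head 5 was the highest and head 6 the lowest at 4 h, and starved head 3 was the highest starved head, unlike in the genes of fatty acid oxidation. Tat, tyrosine aminotransferase, fell by 1.31 on the log2 scale (limma adjusted p = 0.00742), with 1974 of its 2509 exonic bases shared with CG46317. Without both heads that stood apart, Tat (limma adjusted p = 0.0144), hgo (0.0419) and Faa (0.00425) were still called and Hpd was not (0.0538). GstZ2, a zeta class glutathione transferase, a class that in mammals acts between hgo and Faa, fell by 0.77 on the log2 scale (limma adjusted p = 0.0417), with overlap. In untrained fed heads hgo averaged 41.9 ± 18.1 RPKM and Hpd 260.1 ± 69.0 RPKM (SD, n = 5), beside starved means of 44.9 ± 22.3 and 281 ± 118 RPKM (SD, n = 5).

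Detoxification genes fell in small numbers spread over several families. Of 74 cytochrome P450 genes 12 fell and 1 rose (median −0.27), and without both heads that stood apart 7 fell. Cyp4e3, of a family that in insects includes fatty acid hydroxylases, had 8.36, 7.36, 10.6, 7.18 and 3.98 RPKM at 4 h, against 20.01, 440.3, 26.9, 49.8 and 145 RPKM in starved heads (−3.13 ± 0.71 SE, adjusted p = 0.0127, limma). Its starved heads spread widely, but none reached down to the heads at 4 h. Its relatives Cyp4e2 (−1.78) and Cyp4e1 (−1.08) and the Cyp28d pair, Cyp28d1 (−1.35) and Cyp28d2 (−0.32), fell with it. Cyp6 genes were 7 of the 12, among them Cyp6a21 with 7.46, 7.11, 4.46, 6.29 and 3.27 RPKM at 4 h, against 14.2, 18.7, 16.9, 13.2 and 13.9 RPKM in starved heads (−1.32, limma adjusted p = 0.00358). Reads of close relatives in these families may have been lost or shared, depending on how reads that map to several places were treated. The mitochondrial P450 Cyp12b2 rose by 0.64 (limma adjusted p = 0.00693).

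Of 17 UDP-glycosyltransferases, which attach sugars to small molecules, 4 fell and 0 rose, 1 without head 6 at 4 h and 2 without both heads that stood apart. One of the 4 was Ugt302C1 with 20.1, 22.5, 14.8, 26.3 and 12.3 RPKM at 4 h, against 33.9, 37.2, 40.3, 32.4 and 40.1 RPKM in starved heads (−0.95, limma adjusted p = 0.00542). Of 48 glutathione and antioxidant genes 4 fell and 1 rose (Gclm). Catalase, Cat, which removes hydrogen peroxide made in peroxisomes, had 99.0, 105, 76.7, 115.4 and 62.0 RPKM at 4 h, against 168, 251, 235, 162 and 265 RPKM in starved heads, without overlap (−1.23 ± 0.20 SE, adjusted p = 0.00199, limma). The glutathione transferase GstD1 fell by 0.70 on the log2 scale (limma adjusted p = 0.0298). In this list Cat was the only fall called without both heads that stood apart.

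Central energy metabolism leaned down with few calls. Of 16 glycolysis genes 3 fell (median −0.57), the aldolase Ald1 (−1.02), phosphofructokinase Pfk (−0.57) and hexokinase Hex-A (−0.57). Pfk had 60.3, 61.3, 56.3, 69.0 and 46.0 RPKM at 4 h, against 74.6, 102, 81.0, 83.6 and 93.7 RPKM in starved heads (limma adjusted p = 0.0133). The 3 genes did not overlap between groups, and none was called without both heads that stood apart (limma adjusted p = 0.0569, 0.0577 and 0.128). Of 19 genes of the TCA cycle and pyruvate dehydrogenase 2 fell (median −0.30), ScsbetaA (−1.31) and Ogdh (−0.37), with 4 falls without starved head 3 and 1 without head 6 at 4 h. Of 105 genes of oxidative phosphorylation limma called 1 lower and 0 higher (unadjusted p below 0.05 for 56 lower, voom 2 lower), and 15 lower with only the 2 groups in the fit and 34 with head quality weights. In this list 92 had a fold change below 0 (median −0.37) and 56 did not overlap between groups, against 9.63% over all genes. Muscle markers, 7 tested, had fold changes below 0 throughout (median −0.81), with summed levels that overlapped between groups, and their part in these lists was not tested. Of 14 genes of gluconeogenesis, trehalose and glycogen limma called 0 (unadjusted p below 0.05 for 0 higher and 2 lower, voom 0).

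Pepck1, which begins gluconeogenesis, had 34.3, 27.6, 91.1, 62.7 and 35.6 RPKM at 4 h, against 801, 1782, 5.00, 1015 and 1463 RPKM in starved heads (−3.17, limma adjusted p = 0.118). Starved head 3 was far below all heads at 4 h, and without both heads that stood apart the fold change was −4.61 (limma adjusted p = 0.00425). All of its 2486 exonic bases are shared with CG45087.

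Transporters of sugars and other nutrients fell in small numbers. SLC5A11 (cupcake), named after the values were seen, a sodium-solute cotransporter whose neuronal expression follows hunger in flies, had 14.8, 16.0, 17.4, 16.0 and 19.1 RPKM at 4 h, against 30.5, 62.6, 28.0, 39.4 and 31.6 RPKM in starved heads (−1.10 ± 0.18 SE, adjusted p = 0.00266, limma). The groups did not overlap, and the call was kept in all 10 fits that left out a head. It averaged 21.6 ± 2.86 RPKM in untrained fed heads (SD, n = 5). Of 8 sugar transporters 2 fell, nebu and Indy, of which Indy carries citrate. Of these nebu fell by 1.35 on the log2 scale (limma adjusted p = 0.00519), with 34.3 to 78.7 RPKM at 4 h and 58.5 to 194 RPKM in starved heads. Sirup, an assembly factor of mitochondrial complex II, had 147, 101, 107, 116 and 66.9 RPKM at 4 h, against 251, 450.1, 407, 373 and 434 RPKM in starved heads (−1.84 ± 0.29 SE, adjusted p = 0.00197, limma). Its groups lay far apart.

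Some activity-regulated genes, which neuronal firing induces, were lower at 4 h. Of 20 tested 6 fell and 1 rose (cbt), with a median of −0.07 (9 above 0), and 4 fell without both heads that stood apart. The nuclear receptor Hr38 had 2.49, 1.92, 3.26, 1.24 and 1.52 RPKM at 4 h, against 6.15, 4.50, 4.66, 4.98 and 4.41 RPKM in starved heads (−0.98 ± 0.16 SE, adjusted p = 0.00199, limma). The Egr factor sr (stripe) had 1.76, 2.14, 2.67, 1.63 and 1.58 RPKM at 4 h, against 4.41, 3.04, 3.74, 4.09 and 3.49 RPKM in starved heads (−0.69 ± 0.10 SE, adjusted p = 0.00197, limma). Neither gene overlapped between groups. At 1 h Hr38 averaged 8.24 ± 1.71 RPKM and sr 4.05 ± 0.425 RPKM (SD, n = 6), and in untrained fed heads 4.30 ± 0.431 and 2.19 ± 0.328 RPKM (SD, n = 5). CG13055 (−0.53) and CG17778 (−0.45), 2 further genes of this list, had limma adjusted p-values of 0.00276 and 0.00529. The Fos factor kay differed by 0.07 (limma adjusted p = 0.829). The count of falls in the list was 3 with voom and 3 with equal total RPKM. Of 27 genes of synaptic release limma called 0 (unadjusted p below 0.05 for 0 higher and 2 lower, voom 0). Of 25 memory genes 2 fell, the protein kinase A subunits Pka-R1 (−0.33, limma adjusted p = 0.00987) and Pka-C1 (−0.28), and Gclm rose. Limma called 0 memory genes lower with equal totals, with equal 75th percentiles and without both heads that stood apart (voom also 0), and 1 without either head alone.

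A pair of receptors of phagocytic cells fell. Sr-CI, a scavenger receptor that binds bacteria, had 12.9, 13.5, 8.46, 13.2 and 5.80 RPKM at 4 h, against 19.5, 27.3, 32.6, 32.9 and 24.3 RPKM in starved heads, without overlap (−1.30 ± 0.24 SE, adjusted p = 0.00424, limma). NimC4, the apoptotic cell receptor Simu of glia and hemocytes, fell by 1.72 on the log2 scale (limma adjusted p = 0.0174). Sr-CI is itself among the 7 hemocyte markers, so they are not separate from it. Of the 7, 2 fell, Sr-CI included, 1 without head 6 at 4 h, and 6 had a fold change below 0. Their summed level, which contains Sr-CI, was lower at 4 h without overlap, as given above. The part of hemocyte number in Sr-CI and NimC4 was not tested.

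Immune effectors gave no call in the fit reported. Of 17 antimicrobial peptide genes limma called 0 (unadjusted p below 0.05 for 2 higher and 0 lower, voom 0), with a median of 0.51. This median was −0.47 without head 1 at 4 h, −0.40 with head quality weights and 1.37 without both heads that stood apart. Limma called 1 gene of this list higher with equal totals, equal 75th percentiles, a mean level of 5 RPKM or more or head quality weights. The count was also 1 without starved head 1 and without head 5 at 4 h. DptB, which encodes the peptide Diptericin B, had 1979, 10.9, 551, 48.2 and 20.3 RPKM at 4 h, against 13.02, 26.7, 38.2, 263 and 16.8 RPKM in starved heads (1.51 ± 1.16 SE, adjusted p = 0.482, limma). Heads 1 and 4 at 4 h were high, and the other heads at 4 h lay within the starved range or below it. Of 18 Bomanins and Turandots limma called 0 (unadjusted p below 0.05 for 0, voom 0). Of 13 peptidoglycan recognition genes 1 rose, PGRP-SD (1.66, limma adjusted p = 0.0349), a call lost in 5 of the 10 fits that left out a head. The proteasome (35 genes) and the juvenile hormone and ecdysone list (19 genes) also held 0 limma calls (unadjusted p below 0.05 for 0 and 5 genes, voom 0 for both).

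Set beside the other groups, the lists differed in where the starved heads stood. For ribosome biogenesis the mean over the list on log2(RPKM + 1) had medians of 3.21 in untrained fed, 2.74 in starved, 3.19 in 1 h and 3.47 in 4 h heads. For mitochondrial fatty acid oxidation the medians were 5.38, 5.56, 5.21 and 4.57 in the same order, and for amino acid and one-carbon metabolism 6.20, 5.64, 5.65 and 5.08. Against untrained fed heads limma called 357 genes at 4 h (3.40%). Ribosome biogenesis had a median of 0.28 in this test, with 0 of 55 genes called. Amino acid and one-carbon metabolism had a median of −0.70, with 5 of 37 genes lower and 0 higher. Fat body markers summed to 29080 to 64141 RPKM in untrained fed heads, against 1656 to 9001 RPKM at 4 h. Their part in the comparison with untrained fed heads was not tested. In the test of 1 h against starved heads 58 genes changed (0.552%), with a median of 0.41 for ribosome biogenesis and 1 of its 55 genes higher. In that of 4 h against 1 h heads 9 genes changed (0.0857%), of which 0 were in ribosome biogenesis. These comparisons share heads with each other and with the comparison above, so their values stand side by side and are not independent.

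**Figure D5:**
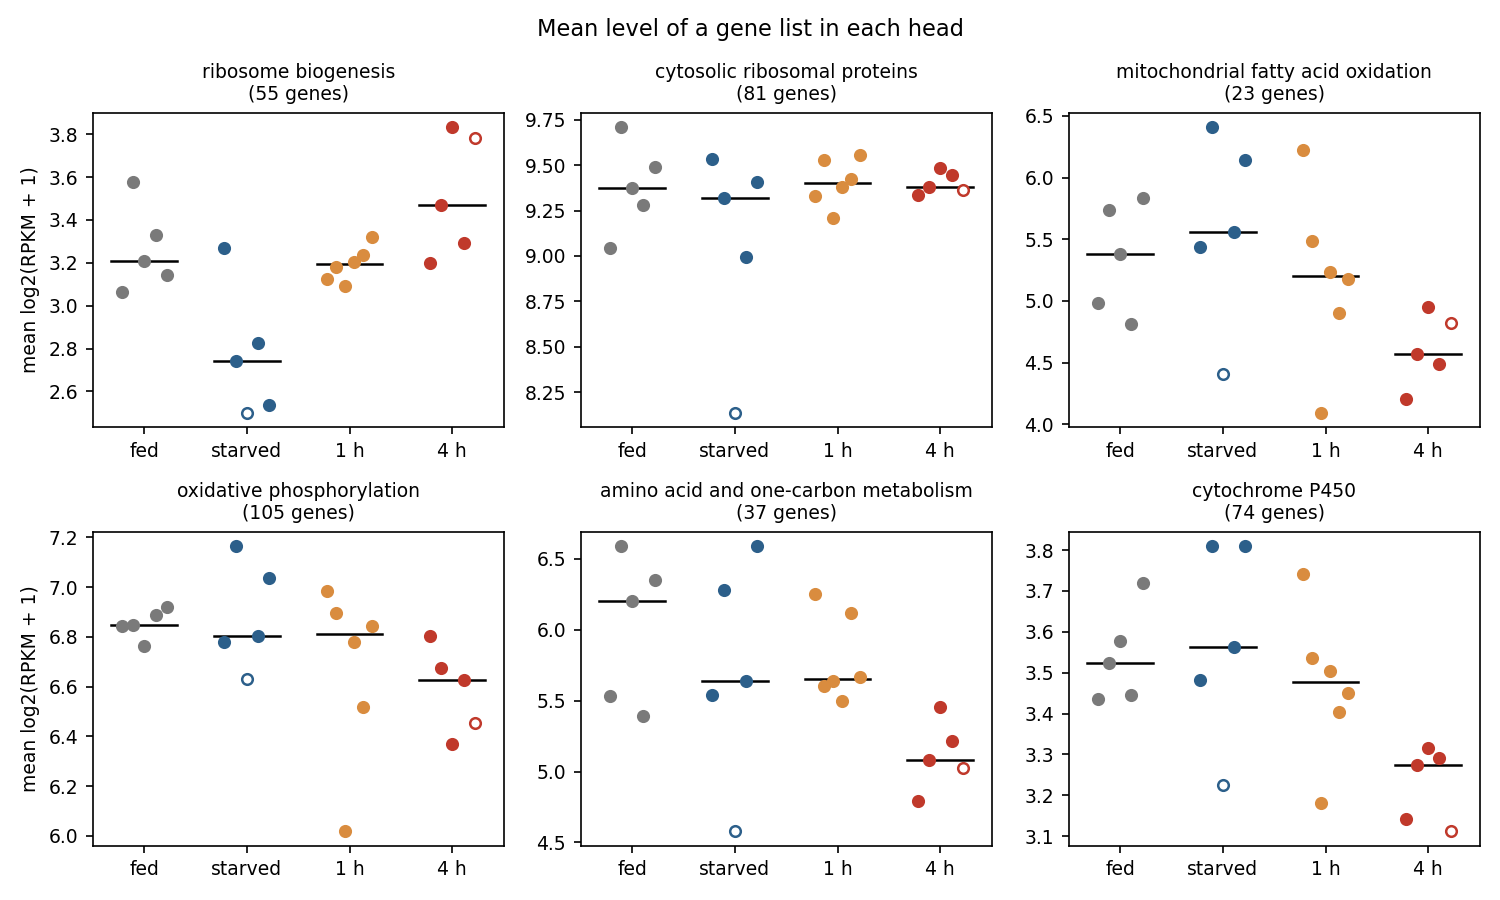
Mean log2(RPKM + 1) over the members of 6 function lists, one point per head, in untrained fed, starved, 1 h and 4 h heads, with lines at the medians and open circles for starved head 3 and head 6 at 4 h. For ribosome biogenesis the starved heads have the lowest median, 2.74, and the 4 h heads the highest, 3.47. For mitochondrial fatty acid oxidation the 4 h heads have the lowest median, 4.57.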

How the data were processed

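The authors made non-stranded polyA libraries from single heads and deposited RPKM values per gene and head. The labels name dm6 and TopHat2 2.0.13. The study's methods, where they list these heads, name another aligner release, another build and the use of uniquely mapping reads, so which workflow made the table was not settled. Whole reads came out at the Ensembl BDGP6.54 gene length for 16497 of the genes. Every one of the 17212 genes with a level above 0 gave whole reads (100.0%, tolerance 0.01 reads) once RPKM was divided by the worth of 1 read. These reads, 36018275 to 67790881 per head, entered only the voom alternative. No replicates shared a library, with a lowest chi-square per gene of 17.9, for heads 3 and 5 at 4 h. This pair was closer than any other, since the next lowest, untrained fed heads 3 and 6, had 60.2.

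RPKM values are not counts, so log2(RPKM + 1) was fitted with limma 3.58.1 in R 4.3.3 (lmFit, eBayes with a mean-variance trend) over all 21 heads with 1 mean per group, for 10501 genes with at least 1 RPKM in at least 5 heads, two-sided, with Benjamini-Hochberg adjustment over all of them and a threshold of 0.05. The script was tested on simulated data. Heads are single flies, so the spread is between flies.

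The members and the 43 gene lists were chosen with earlier results of these data known. Chosen for naming were the 12 highest and 12 lowest fold changes among called genes whose groups do not overlap. So were up to 4 called members per list and direction, and key members of the lists. Of the extremes, CG9451, CG9449, CG14567, Obp99d and Rpp21 rose and CG31075, CG9512 and Flo2 fell. These genes are not described above, nor are some of the list members. Named after their values were seen were Gbs-76A, CG4500, pdgy, CROT, SLC5A11, Sr-CI, Mybbp1A, Uhg1, Uhg2, mod, U3-55K, Tapdelta and SrpRbeta, further members of the ribosome biogenesis, fatty acid oxidation and amino acid lists, and the genes in the other observations. Gene models and coordinates are those of Ensembl BDGP6.54. Genes without a symbol in the sources (275 of 17559) were not used in the lists.

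The other settings tried were no filter, a pseudocount of 0.1, a mean level of 5 RPKM or more, equal 75th percentiles, equal totals, no trend, robust moderation, only the 2 groups, the replicate number as a block, head quality weights, voom on recovered reads and leaving out each of the 10 heads. Leaving out both heads that stood apart was chosen after seeing the data.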

Additional observations from a re-analysis of the deposited data

Results flagged for a closer look

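In each group of 5 heads and each gene named above, the head farthest from the others was compared with Dixon's limit, which chance alone passes in about 1 in 20 groups. Of 196 groups 8 passed (4.08%). Starved head 3, low in fat body markers, was low for Pepck1 (5.00 RPKM), ScsbetaA (124 RPKM) and CG4500 (0.0739 RPKM) and high for per (8.15 RPKM). Starved head 1 was high for Polr1H (4.51 RPKM) and starved head 4 for NimB4 (14.6 RPKM). At 4 h, head 4 was high for CG13055 (1.42 RPKM) and head 6 low for pdgy (15.1 RPKM). These are values, and their causes were not tested.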

How the results depend on the processing

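No called gene named here changed sign under any alternative, but counts moved. Without both heads that stood apart 279 genes changed (110 higher, 169 lower), with the replicate block 355 (222 and 133), and with head quality weights 1883 (871 and 1012). With only the 2 groups in the fit 591 changed (313 and 278), of which 399 were among the 669 of the fit over all 21 heads. Equal total RPKM left 145 lower genes and voom 180, and the share higher was 56.8% in the fit reported, 69.2% with equal 75th percentiles, 68.8% with equal totals, 72.2% with voom, 46.3% with weights, 39.4% without both heads and 43.1% without starved head 3. These scalings moved the median of all genes by at most 0.063. Leaving out 1 head gave 290 to 803 changed genes, 177 to 463 higher and 113 to 363 lower. The changed genes numbered 290 without head 6, 329 without head 4 and 461 without head 3 at 4 h, and 359 without starved head 2 and 375 without starved head 5. Ribosome biogenesis held 32 to 50 higher genes, 21 without both heads and 30 with only the 2 groups. Falling members of mitochondrial fatty acid oxidation were 1 to 10 with 1 head left out, 3 with no filter, 1 with the block, 8 with equal totals and 16 with weights. For amino acid metabolism they were 4 to 10, 8 without both heads, 2 with only the 2 groups and 14 with weights. For cytochrome P450 they were 9 to 17, 7 without both heads and 23 with weights, and for activity-regulated genes 5 to 6, 3 with equal totals and 3 with voom. The cause of these moves was not tested. The deviations of same-numbered heads correlated at −0.241, 0.190, 0.205 and −0.0874. Heads of different numbers were not compared in this way, so these values cannot tell whether the replicate numbers pair the heads. Of 113 called genes named by the rule or after their values were seen, 60 kept their call in all 10 fits that left out a head and 53 lost it in at least 1. With 5 heads a group, differences smaller than the spread between flies were not detectable here.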

Other observations

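Beyond the nucleolus, further genes of RNA modification rose, a group assembled after the values were seen. Of 18 tested genes of transfer and ribosomal RNA modification named Dus, Elp, Nsun, Pus or Trmt, 11 were higher at 4 h and 0 lower, with a median fold change of 0.35 (15 above 0), against 3.62% higher over all genes. The count was 7 without starved head 3, 3 without head 6 at 4 h and 1 without both. Nsun2, an RNA cytosine methyltransferase, had 6.77, 8.65, 11.9, 7.36 and 9.72 RPKM at 4 h, against 7.497, 5.44, 4.46, 5.46 and 3.98 RPKM in starved heads (0.63, limma adjusted p = 0.0227), with overlap through starved head 1. Dus3, of the dihydrouridine synthases, rose by 0.62 (limma adjusted p = 0.00788). All 3 Noc genes, whose yeast relatives take pre-ribosomes through the nucleolus, were higher (median 0.47), 1 without starved head 3 and 0 without head 6 at 4 h by limma.

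Among 8 tested genes of the Nimrod family, grouped by name after the values were seen, 3 were lower at 4 h and 1 had a fold change above 0. Without both heads that stood apart 2 were lower. NimC4, described above, is among the 3. NimB4 had 6.63, 7.66, 6.99, 6.94 and 5.56 RPKM at 4 h, against 9.96, 11.1, 10.4, 14.6 and 10.9 RPKM in starved heads, without overlap (−0.67 ± 0.12 SE, adjusted p = 0.00465, limma), and its neighbour NimB5 fell by 0.91 on the log2 scale (limma adjusted p = 0.00830). Hemocyte marker sums, which contain the Nimrod receptor NimC1, were also lower at 4 h, and their part was not tested.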
